A study of Mus musculus with 4 samples.

Results

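The 10 genes examined here encode enzymes that remove reactive oxygen species or repair the damage they cause. They are Gpx1, Prdx2, Cat, Sod1, Sod2, Nqo1, Hmox1, Gclm, Txnrd1 and Srxn1. They were chosen by name as antioxidant genes and targets of the transcription factor Nrf2, and not by a threshold on their values. Earlier results of these data were known when the choice was made. All 10 were found among the 55401 genes of the deposited tables, and all 10 were among the 18596 genes tested. The RNA-seq libraries came from the tibial bone marrow of 4 wild-type male C57/B6 mice fed an HFD from the age of 8 weeks. Mice of the group named Ob (2 libraries) received the HFD only, and those of the group Ob + Exe (2 libraries) also ran on a treadmill at moderate intensity for 12 weeks under the same diet. No lean or chow-fed mice were among the libraries, so both groups share the diet. The paper states that the mice were made obese by the HFD before the running began. It also reports lower body weight and less fat gain in the exercised group. The groups therefore differ in adiposity as well as in exercise, and the part of adiposity in the gene levels was not tested. The mice sequenced were picked as representative ones from larger groups, as the paper states. The comparison asks whether exercise changed the expression of these genes in obese marrow. The paper describes marrow spun out of the bone, whereas the labels of the libraries also name mesenchymal stem cells and fibroblast.

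Superoxide is converted to hydrogen peroxide by superoxide dismutases. Catalase, glutathione peroxidases and peroxiredoxins then reduce the peroxide, and the peroxidases and peroxiredoxins draw on glutathione or thioredoxin, which are kept reduced with NADPH. Nrf2 (encoded by Nfe2l2) is held in the cytoplasm and marked for degradation by Keap1. When oxidants or electrophiles modify Keap1, Nrf2 accumulates, pairs with a small Maf protein and binds antioxidant response elements (ARE) near its target genes, where Bach1 competes with it. In bone marrow, developing red cells load themselves with Prdx2, catalase and Gpx1 because hemoglobin produces superoxide, and Hmox1 breaks down the heme of red cells that macrophages take up.

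In the marrow of these mice, none of the 10 genes was called different between Ob + Exe and Ob. A call required an unadjusted p under 0.05 in limma and a log2 fold change beyond 1, and 3.74% of all genes tested met it (1.0% higher and 2.74% lower in Ob + Exe). Among the 12395 genes with a mean of at least 1 FPKM, to which all 10 members belong, 2.36% were called. Sod1 was the 1 member with an unadjusted p under 0.05, as had 5.05% of all genes tested (3.48% lower and 1.58% higher). Its level was lower in both Ob + Exe libraries. Prdx2, Sod2 and Hmox1 were higher in both Ob + Exe libraries than in both Ob libraries, and the other 6 genes overlapped between the groups. A separation of the groups was thus seen for 4 of the 10 genes, 3 higher and 1 lower, and for 32.6% of all genes tested (14.3% higher and 18.3% lower), or 31.9% of those with a mean of at least 1 FPKM. For Prdx2 and Sod2 it was seen in the FPKM summed over transcripts, but not in their most abundant transcript alone. Across the 10 genes the median log2 fold change was 0.11, against -0.02 over all genes tested and 0.019 over those with a mean of at least 1 FPKM. No gene of the whole table had an adjusted p under 0.05 in limma, where 940 had an unadjusted p under 0.05, and limma voom on read equivalents gave 0 as well. With the replicate number as a block there were 18 such genes, and 11 with the numbers crossed, none of them a member. For 2 libraries against 2 the smallest two-sided p of an exact permutation test is 0.333.

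**Figure D1:**
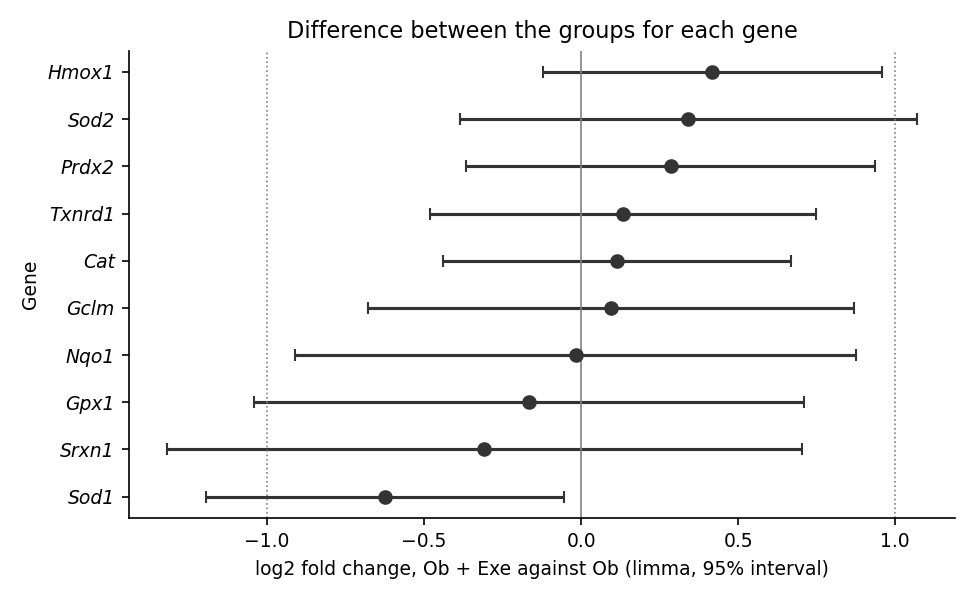
The log2 fold change of each of the 10 genes (Ob + Exe against Ob, horizontal axis) with its 95% interval from limma, ordered by size, with dotted lines at -1 and 1. The interval of Sod1 ends at -0.05, and those of the other 9 genes include 0.

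The aligned bases amounted to 9952 and 9639 Mb in the Ob libraries and to 8806 and 8702 Mb in the Ob + Exe libraries. The depth behind a value is given in read equivalents, the bases that cover a transcript expressed in reads of 150 bases. The lowest of the 40 values, that of Srxn1 in Ob + Exe replicate 1, rested on 398 read equivalents, and the highest, that of Gpx1 in Ob replicate 2, on 262371. The number of mice therefore limits the precision more than the reads. Nothing in the labels says more of the replicates than their numbers, so the p values rest on the spread between these libraries. In limma the spread of a gene is also drawn toward that of genes at similar levels, with 3.79 prior against 2 residual degrees of freedom. Values are FPKM scaled between libraries, which can be compared between genes because they are per length, and fold changes refer to log2 values after 0.1 was added.

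The start regions of the genes were read for the ARE, since it is the feature by which Nrf2 targets are defined. RefSeq windows on GRCm38.p6, from 250 bases before to 50 after a start, were at hand for 9 of the 10 genes (11 windows, 3 of them at different starts of Txnrd1). No window was at hand for Hmox1. The letters TGACNNNGC and TGAGNNNGC, the core of the ARE, and TGAGTCA, which fits AP-1 and can lie within the second, were searched on both strands. At least 1 match was found for Srxn1, Gclm, Sod1 and Txnrd1. Of all 32851 windows, 27.8% hold TGACNNNGC or TGAGNNNGC and 5.2% hold TGAGTCA. The 4 windows are printed from 5′ to 3′ on the strand of the gene, with the matches in capitals, because they let the sequence be set beside the levels given further on.
Srxn1, chr2:152105274-152105573, plus strand: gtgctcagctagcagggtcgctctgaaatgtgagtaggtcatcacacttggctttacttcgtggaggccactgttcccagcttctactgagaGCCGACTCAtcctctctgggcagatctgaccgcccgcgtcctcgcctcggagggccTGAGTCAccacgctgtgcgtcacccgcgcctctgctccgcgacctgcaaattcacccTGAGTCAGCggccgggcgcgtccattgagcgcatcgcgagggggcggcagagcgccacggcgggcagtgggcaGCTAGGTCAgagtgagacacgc
Gclm, chr3:122245307-122245606, plus strand: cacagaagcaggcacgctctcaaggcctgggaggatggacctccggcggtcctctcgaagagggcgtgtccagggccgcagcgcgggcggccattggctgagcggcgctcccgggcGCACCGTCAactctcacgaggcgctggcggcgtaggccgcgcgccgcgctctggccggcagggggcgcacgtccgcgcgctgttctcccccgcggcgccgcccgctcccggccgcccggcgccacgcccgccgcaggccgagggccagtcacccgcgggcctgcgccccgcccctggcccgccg
Sod1, chr16:90220512-90220811, plus strand: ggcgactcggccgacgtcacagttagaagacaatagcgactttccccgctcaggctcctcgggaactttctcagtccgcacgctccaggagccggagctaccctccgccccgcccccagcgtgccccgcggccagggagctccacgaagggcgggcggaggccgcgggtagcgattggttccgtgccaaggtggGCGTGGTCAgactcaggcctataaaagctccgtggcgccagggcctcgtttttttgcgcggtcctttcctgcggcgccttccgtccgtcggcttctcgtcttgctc
Txnrd1, chr10:82858956-82859255, plus strand: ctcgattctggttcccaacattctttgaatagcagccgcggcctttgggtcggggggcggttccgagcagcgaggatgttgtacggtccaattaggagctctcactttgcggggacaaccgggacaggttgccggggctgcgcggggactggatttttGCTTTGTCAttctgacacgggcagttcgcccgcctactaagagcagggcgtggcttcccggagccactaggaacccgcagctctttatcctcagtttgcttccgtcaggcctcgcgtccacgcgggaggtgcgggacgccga

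The Srxn1 window has the most matches. TGAGTCAGC, which begins 45 bases upstream of the start, is at once a TGAGNNNGC and a TGAGTCA. A further TGAGTCA begins 102 bases upstream, and TGAGTCGGC on the other strand begins 158 bases upstream. TGACCTAGC, also on the other strand, begins at base 29 after the start. The single matches in Gclm, Sod1 and Txnrd1 begin 134, 56 and 92 bases upstream and read TGACGGTGC, TGACCACGC and TGACAAAGC on the other strand. The Txnrd1 match lies at a start that few of the reads used, as described below. No such letters were found in the windows of Gpx1, Prdx2, Cat, Sod2 and Nqo1, which says nothing of sites farther away. For Prdx2, transcripts that start within the window held 55.5% of the FPKM. The start of its transcript ENSMUST00000164807.1, described below, lies outside the window and was not read.

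The levels of the 10 genes spanned nearly 3 orders of magnitude in whole marrow. Gpx1 had a mean of 3324 FPKM over the 4 libraries and ranked 9 among the 18596 genes, and Prdx2 followed with 861 (rank 38). Hmox1 (148), Sod1 (126), Cat (87.8) and Gclm (76.1) formed a middle tier. Txnrd1 (18.0), Nqo1 (8.83), Sod2 (5.80) and Srxn1 (3.94) were the lowest. In this order, Gpx1, Prdx2 and Txnrd1 were separated from their neighbours in all 4 libraries, as was Gclm from Txnrd1. The ranges of Hmox1 and Sod1, Sod1 and Cat, Cat and Gclm, Nqo1 and Sod2, and Sod2 and Srxn1 overlapped.

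**Figure D2:**
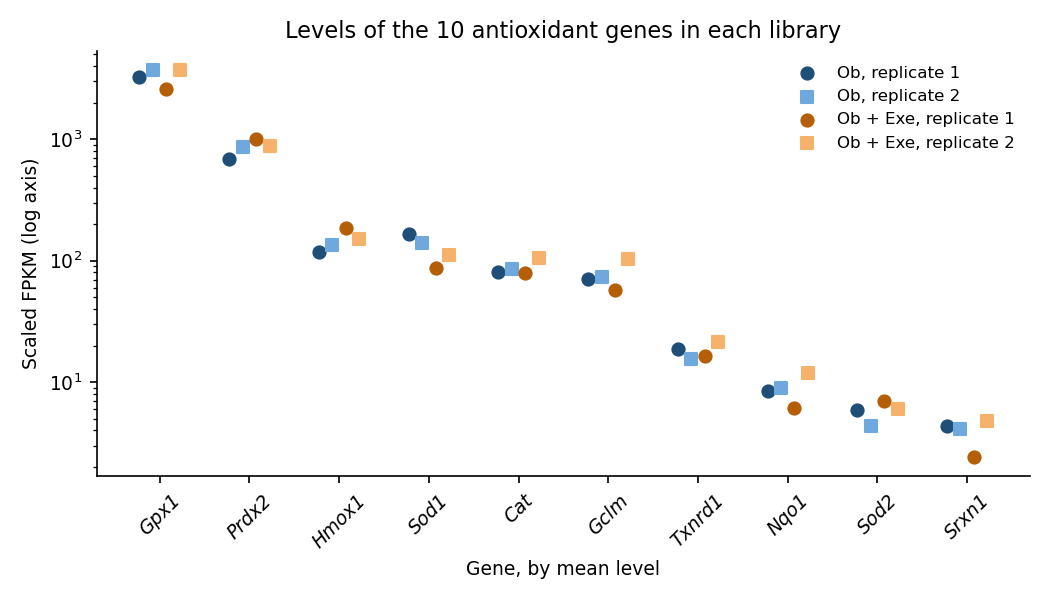
Scaled FPKM (vertical log axis) of the 10 genes in each of the 4 libraries, ordered by mean level, with Ob in blue, Ob + Exe in orange, and circles and squares for replicates 1 and 2. The genes run from Gpx1 (2614 to 3718) to Srxn1 (2.42 to 4.82), and the symbols of the 2 groups are mixed for 6 of them.

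The superoxide dismutases Sod1 and Sod2 had differences of opposite sign. Sod1 encodes the cytosolic copper-zinc enzyme (ENSMUSG00000022982.10, chr16:90220754-90226329 on the plus strand of GRCm38). Scaled FPKM came to 167 and 139 in Ob, compared with 87.0 and 112 in Ob + Exe, from 4150 to 8331 read equivalents. The groups were thus apart, with the exercise libraries lower. The means were 153 ± 20.0 (SD, n = 2) and 99.4 ± 17.6 (SD, n = 2), and the log2 fold change was -0.62 (standard error 0.23, limma unadjusted p = 0.0369, adjusted p = 0.959). The log2 fold change stayed between -0.82 and -0.45 when 1 library was left out, but the unadjusted p in limma was then under 0.05 only without Ob + Exe replicate 2 (0.0302). It was also above 0.05 in limma without the intensity trend (0.112) and with the replicate number as a block (0.084).

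The 3' end of Sod1 overlaps 650 bases of Scaf4 on the other strand. The library kit is not described as keeping strand, so reads of the 2 genes cannot be told apart there. Scaf4 had 11.7 to 14.2 FPKM. A copy on chromosome 6, Gm8566, is 97.8% identical to the Sod1 transcript over 465 bases and was listed at 10.2 and 3.17 FPKM in Ob, compared with 4.71 and 6.88 in Ob + Exe. With this copy added, Sod1 had 177 and 142 in Ob, compared with 91.7 and 119 in Ob + Exe, and the groups remained apart. Ccs, the chaperone that delivers copper to the Sod1 protein, was listed at 8.64 and 8.77 in Ob, compared with 8.76 and 10.9 in Ob + Exe (log2 fold change 0.16).

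Sod2 encodes the manganese enzyme of mitochondria (chr17:13006846-13040063). It had 5.87 and 4.38 FPKM in Ob, compared with 6.96 and 5.99 in Ob + Exe. The upper Ob library and the lower Ob + Exe library were nearly level, so the separation was slight. Its log2 fold change was 0.34 (95% interval -0.39 to 1.07, limma adjusted p = 0.959), and 0.11 from its most abundant transcript alone, for which the groups overlapped. The extracellular enzyme Sod3 was at 0.00 to 0.41 FPKM.

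Among the enzymes that reduce peroxides, Gpx1 is a selenoprotein. Its coding sequence carries an in-frame TGA as codon 47 of the transcript ENSMUST00000082429.6, which is read as selenocysteine instead of stop. Of the main transcripts of the 10 genes, that of Txnrd1 was the only other with an in-frame TGA, as codon 498, with 1 codon between it and the stop codon. Both stretches, from the GENCODE vM21 transcripts, are shown with this TGA in capitals because it sets the 2 genes apart from the other 8.
Gpx1: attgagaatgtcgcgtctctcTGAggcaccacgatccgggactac
Txnrd1: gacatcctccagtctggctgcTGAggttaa

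Gpx1, the main cytosolic glutathione peroxidase (chr9:108338903-108340343), had 3270 and 3718 FPKM in Ob, compared with 2614 and 3695 in Ob + Exe. Ob + Exe replicate 1 was the lowest library, and replicate 2 of that group lay within the Ob range. The log2 fold change was -0.17 (95% interval -1.04 to 0.71, limma adjusted p = 0.977). Gpx4, a related selenoprotein that reduces lipid peroxides, had 193 and 202 FPKM in Ob, compared with 198 and 186 in Ob + Exe. Of the 9 genes of selenoprotein synthesis in a list written for this comparison, 0 were called. Selenop, the carrier of selenium in plasma, had 101 and 98.5 FPKM in Ob, compared with 117 and 171.5 in Ob + Exe (log2 fold change 0.51, limma adjusted p = 0.959). Pstk, a kinase that acts on the selenocysteine tRNA, had 4.67 and 3.81 against 3.79 and 3.66.

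Prdx2, the abundant peroxiredoxin of red cells (chr8:84969587-84974834), had 690 and 866 FPKM in Ob, compared with 1007 and 881 in Ob + Exe. The groups did not overlap, but Ob replicate 2 and Ob + Exe replicate 2 were close to each other. The log2 fold change was 0.28 (95% interval -0.37 to 0.94, limma adjusted p = 0.959), and 0.17 with limma voom on read equivalents. It was -0.12 when the most abundant transcript alone was taken in place of the sum, so the direction depended on the transcripts counted. That transcript, ENSMUST00000005292.14, was nearly level with ENSMUST00000164807.1 in mean FPKM. The latter was higher in both Ob + Exe libraries, as described below.

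Cat, which encodes catalase of peroxisomes (chr2:103453849-103485160), varied least among the 10 genes, with a highest value 1.33 times the lowest. It had 81.5 and 86.2 FPKM in Ob, compared with 78.7 and 105 in Ob + Exe. The exercise libraries thus lay on both sides of the obesity libraries (log2 fold change 0.12, 95% interval -0.44 to 0.67, limma adjusted p = 0.975). The other peroxiredoxins, Prdx1 and Prdx3 to Prdx6, had log2 fold changes between -0.48 (Prdx4) and 0.33 (Prdx6), and 0 of them were called.

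The thioredoxin arm was represented by Txnrd1 and Srxn1. Txnrd1, the cytosolic thioredoxin reductase (chr10:82833951-82897712), had 18.8 and 15.4 FPKM in Ob, compared with 16.4 and 21.3 in Ob + Exe, with overlap of the groups and a log2 fold change of 0.13 (95% interval -0.48 to 0.75, limma adjusted p = 0.975). Srxn1, sulfiredoxin, which restores over-oxidized peroxiredoxins (chr2:152105516-152111376), had 4.39 and 4.13 FPKM in Ob, compared with 2.42 and 4.82 in Ob + Exe. Its 2 Ob values were nearly equal, whereas its Ob + Exe values were the lowest and the highest of the 4. The log2 fold change was -0.31 (95% interval -1.32 to 0.70, limma adjusted p = 0.974).

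Nqo1, Gclm and Hmox1 are the members best known as inducible Nrf2 targets. Nqo1, a quinone reductase (chr8:107388225-107403206), had 8.39 and 8.91 FPKM in Ob, compared with 6.17 and 11.8 in Ob + Exe (log2 fold change -0.02, 95% interval -0.91 to 0.88, limma adjusted p = 0.998). Gclm, the modifier subunit of the enzyme that starts glutathione synthesis (chr3:122245557-122270732), had 71.1 and 72.8 FPKM in Ob, compared with 57.1 and 103 in Ob + Exe (log2 fold change 0.10, 95% interval -0.68 to 0.87, limma adjusted p = 0.985). In both genes the exercise libraries enclosed the obesity libraries. Gclc, the catalytic subunit of the same enzyme, had 52.9 and 64.8 FPKM in Ob, compared with 47.8 and 62.8 in Ob + Exe.

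Hmox1, heme oxygenase 1 (chr8:75093621-75100589), is induced by heme, whose binding removes the repressor Bach1. It had 117 and 136 FPKM in Ob, compared with 187 and 152 in Ob + Exe. Both exercise libraries were above both obesity libraries, with means of 127 ± 13.0 (SD, n = 2) and 169 ± 24.3 (SD, n = 2) and a log2 fold change of 0.42 (standard error 0.22, 95% interval -0.12 to 0.96, limma unadjusted p = 0.107, adjusted p = 0.959). It stayed between 0.26 and 0.55 with 1 library left out. Blvrb, a biliverdin reductase, had 176 and 183 FPKM in Ob, compared with 148 and 166 in Ob + Exe (log2 fold change -0.20, and 0.06 from its most abundant transcript alone).

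Some members differed widely between the 2 exercised mice, but the 10 members as a set did not differ more than other genes. The median size of their log2 difference between the Ob + Exe replicates was 0.395, against 0.427 over all genes with a mean of at least 1 FPKM. Between the Ob replicates it was 0.197, against 0.26. In Ob + Exe, replicate 2 exceeded replicate 1 by 2.00-fold for Srxn1, 1.92-fold for Nqo1 and 1.81-fold for Gclm. The same genes differed by at most 0.09 on the log2 scale between the 2 Ob mice. Ob + Exe replicate 1 was the lowest and replicate 2 the highest library for these 3 genes and Cat, which is 4 of the 10 members and was the case for 14.0% of the 12395 genes with a mean of at least 1 FPKM. Replicate 2 was above replicate 1 for 7 members and for 51.6% of those genes. Prdx2, Sod2 and Hmox1, the 3 members that were higher in both Ob + Exe libraries, had the opposite order. Replicate 2 exceeded replicate 1 by at least as much as for Gclm in 9.29% of those genes, and by at least as much as for Srxn1 in 7.2%.

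**Figure D3:**
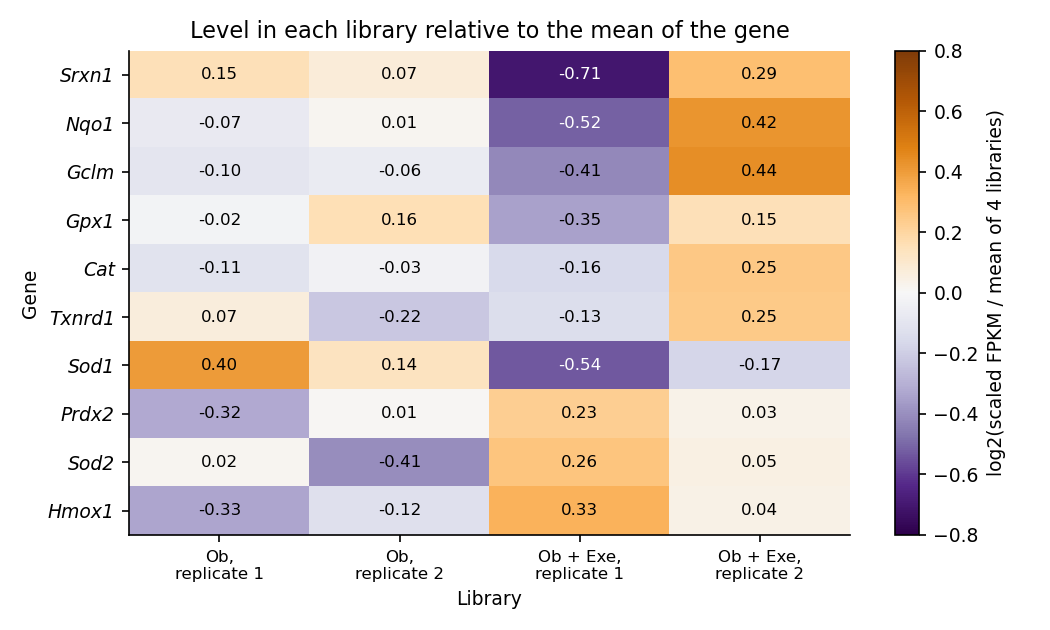
Level of each gene in each library as log2 of the ratio to its mean over the 4 libraries, with purple below and orange above the mean. Srxn1, Nqo1 and Gclm are lowest in Ob + Exe replicate 1 (-0.71, -0.52 and -0.41) and highest in replicate 2 (0.29, 0.42 and 0.44), and Sod1 is below its mean in both.

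Cell markers moved between the same libraries. The 13 erythroid markers found, led by Hbb-bs, summed to 73440 and 73200 FPKM in Ob, compared with 54260 and 82490 in Ob + Exe. Without the globins the sums were 2209 and 2362 in Ob, compared with 1884 and 2517 in Ob + Exe, so Ob + Exe replicate 1 was the lowest and replicate 2 the highest library for them too. The 13 neutrophil markers, led by S100a8, summed to 51210 and 28980 in Ob, compared with 37870 and 68250 in Ob + Exe. The 13 macrophage and monocyte markers, led by Ly6c2, summed to 561 to 674 FPKM, of which Ly6c2 made up 249.2 to 333.1. Ob + Exe replicate 1, which had the highest Hmox1, also had the highest Spic (22.8), Vcam1 (40.3) and C1qc (22.5) of the 4 libraries. Csf1r, Cd68 and C1qb were highest in Ob replicate 2, and Adgre1, Ly6c2, Ccr2 and Itgam in Ob + Exe replicate 2. Cd163, C1qa and Mrc1 were lower in both Ob + Exe libraries than in both Ob libraries. Of these 13 markers, 6 were higher and 7 lower in Ob + Exe. None of these 3 lists had a called gene. Of the 11 B cell markers, led by Cd79b, 10 were lower and 2 were called (lower), and of the 9 megakaryocyte markers, led by Ppbp, 9 were lower and 3 were called. The 12 markers of stroma and fibroblasts, led by Cxcl12, had 1 called gene (lower) and summed to 116 to 183 FPKM. Cxcl12 had 88.4 to 142 FPKM, and the other 11 ranged from 0.22 (Col3a1) to 8.70 (Adipoq), so none was absent. The markers of red cells and neutrophils summed to far more, and the samples are called whole bone marrow here and not by the fibroblast or stem cell labels. The 9 T and NK cell markers, led by Nkg7, summed to 41.0 to 75.0 FPKM (5 higher and 4 lower). Endothelial markers, led by Pecam1, summed to 11.8 to 18.3 (6 of 6 lower), and muscle markers, led by Mylpf, to 5.69 to 13.8 (5 of 5 tested higher, 1 called). In whole marrow, fewer cells of a type and less RNA per cell cannot be told apart, and the part of these markers in the values of the 10 genes was not tested.

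The transcripts of the members were examined because the gene values are sums over 45 annotated transcripts. StringTie divides the reads of a gene among its transcripts by estimation, so these shares are less certain than the sums. Of the 21 transcripts with a mean share of 1% to 99% in their gene, 13 had shares that did not overlap between the groups, which was the case for 33.8% of such transcripts over all genes. The shares in a gene add up to 100%, so these 13 are not independent of each other. No test was made on them.

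For Prdx2, the protein-coding transcript ENSMUST00000164807.1, which starts farther downstream (84970239), held 30.6% and 36.2% of the gene in Ob, compared with 52.9% and 47.0% in Ob + Exe. ENSMUST00000005292.14 held 49.7% and 47.2% in Ob, compared with 38.3% and 37.2% in Ob + Exe. The first of these transcripts was the larger one in both Ob + Exe libraries and in neither Ob library. Its deposited FPKM was 217 and 326 in the Ob mice and 535 and 391 in the exercised mice, whereas that of the second was 353 and 426 and then 387 and 309. The first is 1175 bases long and the second 1500. FPKM is per length, so the same reads count for more in a shorter transcript. The part of this in the summed Prdx2 level was not tested. For Gpx1, the shorter coding transcript ENSMUST00000191997.1 held 7.53% and 6.02% in Ob, compared with 2.14% and 2.59% in Ob + Exe.

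Txnrd1 is annotated with several starts. ENSMUST00000219442.1, which starts at 82860301, held 83.2% and 84.7% of the gene in Ob, compared with 98.1% and 95.9% in Ob + Exe. ENSMUST00000020484.7, which starts at 82859179 in the window printed above, held 14.2% and 1.2% in Ob and was at 0.0% and 0.02% in Ob + Exe. ENSMUST00000219368.1, from the most upstream start, held 0.16% and 8.18% in Ob and was listed at 0 in both Ob + Exe libraries. The minor transcripts thus differed even between the Ob mice. On average 90.5% of the Txnrd1 FPKM belonged to transcripts that start within the third RefSeq window (82860091 to 82860390), which holds none of the letters searched, and 5.57% to those of the window with TGACAAAGC.

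For Sod2, ENSMUST00000233451.1, which starts upstream of the main transcript, was listed at 0 in both Ob libraries and held 11.9% and 6.63% in Ob + Exe. This transcript is only 451 bases long, and its deposited FPKM in Ob + Exe was 0.84 and 0.38. The main transcript, ENSMUST00000007012.5, had 4.95 and 3.84 in Ob, compared with 4.38 and 4.77 in Ob + Exe, with overlap of the groups. Main transcripts of Cat, Nqo1 and Hmox1 held at least 99.98% of their genes in every library, and for these 3 genes the sum and the main transcript are the same measurement. The other members, Sod1, Gclm and Srxn1, also had 1 dominant transcript.

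**Figure D4:**
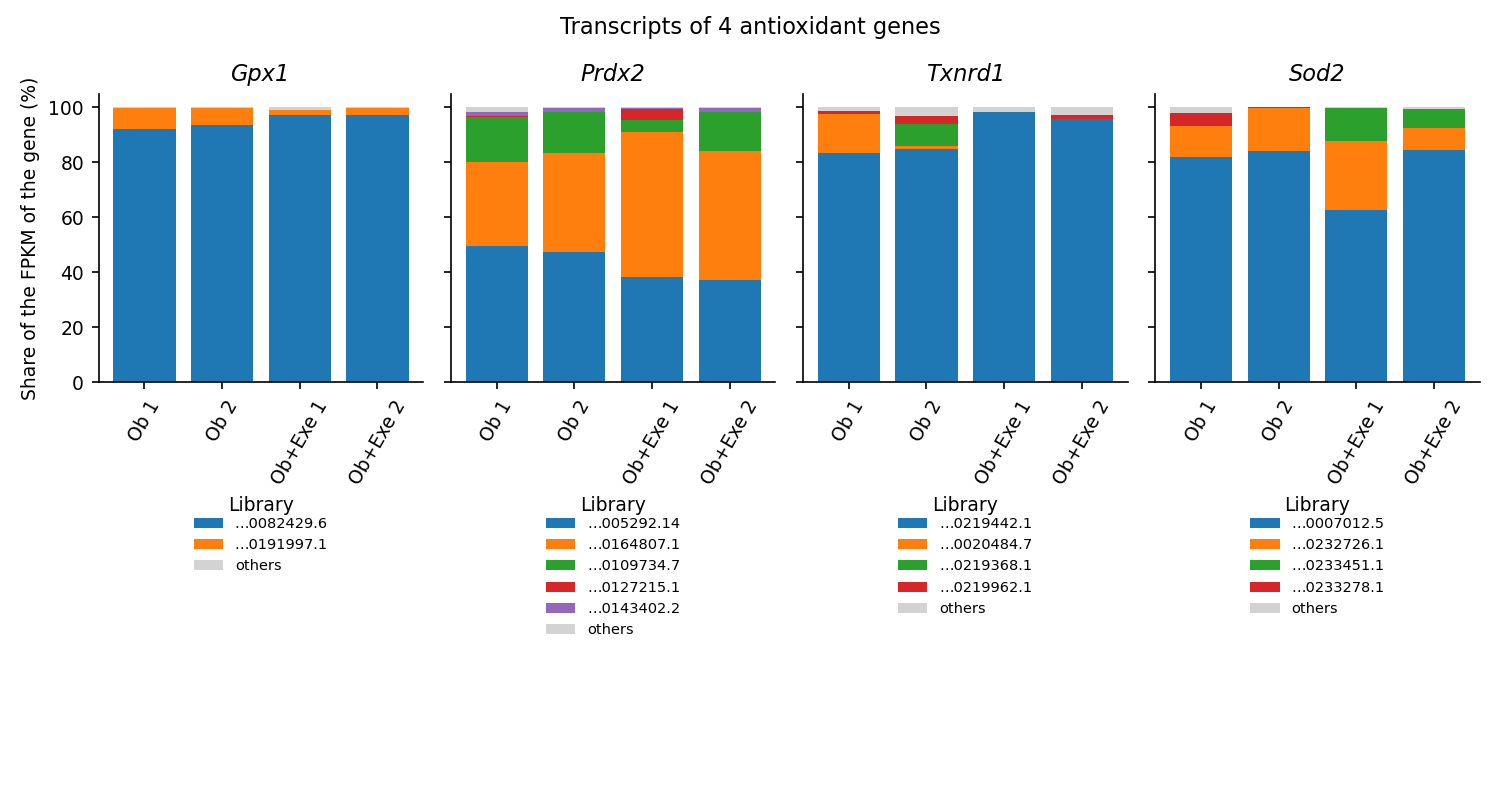
Share of the FPKM of a gene (vertical axis, %) held by each annotated transcript in the 4 libraries (horizontal axis), for Gpx1, Prdx2, Txnrd1 and Sod2, with transcripts named by the end of their Ensembl identifier. The orange part of Prdx2, ENSMUST00000164807.1, takes 30.6% and 36.2% in Ob, compared with 52.9% and 47.0% in Ob + Exe.

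The wider redox system was followed with 8 lists, which hold 111 further genes, 104 of them tested. Of these, 61 were higher and 43 lower in Ob + Exe, with a median log2 fold change of 0.11. The members included, 7 genes were higher and 9 lower among those of peroxide and superoxide removal, 8 and 7 for thioredoxin and glutaredoxin, 14 and 12 for glutathione, 9 and 6 for quinones and carbonyls, 6 and 4 for NADPH supply, 5 and 3 for heme and iron, 12 and 3 for the regulators and 6 and 3 for selenoprotein synthesis. The groups did not overlap for 44 of the 104 genes (42.3%, against 32.6% of all genes tested). The lists were written with earlier results of these data known. The 1 called gene was Cbr3, a carbonyl reductase (0.962% of the 104 genes, against 3.74% of all genes tested). It had 0.48 and 0.65 FPKM in Ob, compared with 2.62 and 1.44 in Ob + Exe, and the fitted log2 difference was 1.64 (standard error 0.52, limma unadjusted p = 0.0203, adjusted p = 0.959). The call of Cbr3 was lost with a pseudocount of 1, with limma voom, and without each of Ob replicate 1, Ob replicate 2 and Ob + Exe replicate 1. Its neighbour in function Cbr1 had 7.44 and 8.58 FPKM in Ob, compared with 6.55 and 6.04 in Ob + Exe.

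The regulators of the pathway were expressed in all libraries, and 0 of the 15 were called. Nfe2l2 itself had 49.5 and 47.4 FPKM in Ob, compared with 47.0 and 57.7 in Ob + Exe (log2 fold change 0.10). Keap1 had 11.2 and 12.4 in Ob, compared with 8.37 and 9.76 in Ob + Exe (log2 fold change -0.38, limma unadjusted p = 0.164), with no overlap of the groups. From its most abundant transcript alone, chosen by the mean over all libraries, the value was -4.99, and Keap1 was then called (limma unadjusted p = 0.00821). That value rests on the estimated division of the Keap1 reads among its transcripts, which is less certain than the sum. Bach1 had 18.1 and 16.1 in Ob, compared with 13.7 and 24.3 in Ob + Exe. Its Ob + Exe libraries were thus the lowest (replicate 1) and the highest (replicate 2), as for Gclm and Nqo1. The same held for Nfe2l2 and for other regulators of the list. Rbx1, a subunit of the ligase that marks Nrf2 for degradation, had 39.9 and 45.5 in Ob, compared with 86.1 and 48.3 in Ob + Exe, and Bach2, a repressor related to Bach1, had 3.69 and 3.29 against 1.75 and 2.89. Among the 10 genes of NADPH supply, Mthfd2, a mitochondrial enzyme of folate metabolism, had 25.6 and 31.5 FPKM in Ob, compared with 39.6 and 48.3 in Ob + Exe (log2 fold change 0.62, limma unadjusted p = 0.0352, adjusted p = 0.959), and 0 were called. Pgls, of the pentose phosphate pathway, had 85.3 and 81.0 against 68.8 and 64.6 (log2 fold change -0.32, and 0.10 from its most abundant transcript alone).

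Of the 29 genes of glutathione synthesis and conjugation, 26 were tested and 0 were called. Slc7a11, the cystine importer and a further Nrf2 target, had 0.90 and 0.61 FPKM in Ob, compared with 1.18 and 4.37 in Ob + Exe (log2 fold change 1.51, limma unadjusted p = 0.0723), and its value in Ob + Exe replicate 2 stood apart. Without that library the log2 fold change was 0.59. Gstt2, a glutathione transferase, had 10.1 and 15.3 in Ob, compared with 8.88 and 3.28 in Ob + Exe (log2 fold change -1.19, limma unadjusted p = 0.0597), and its log2 fold change without Ob + Exe replicate 2 was -0.49. Among the other thioredoxin and glutaredoxin genes, Msrb1, a methionine sulfoxide reductase and selenoprotein, had the highest level, with 322 and 284 in Ob, compared with 351.5 and 428 in Ob + Exe, and Glrx2 had 6.63 and 8.46 in Ob, compared with 3.89 and 5.21 in Ob + Exe. The groups were apart for both genes, with a log2 fold change of 0.36 and -0.72, and neither was called. The value of Glrx2 was -3.17 from its most abundant transcript alone and -0.32 with limma voom.

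**Figure D5:**
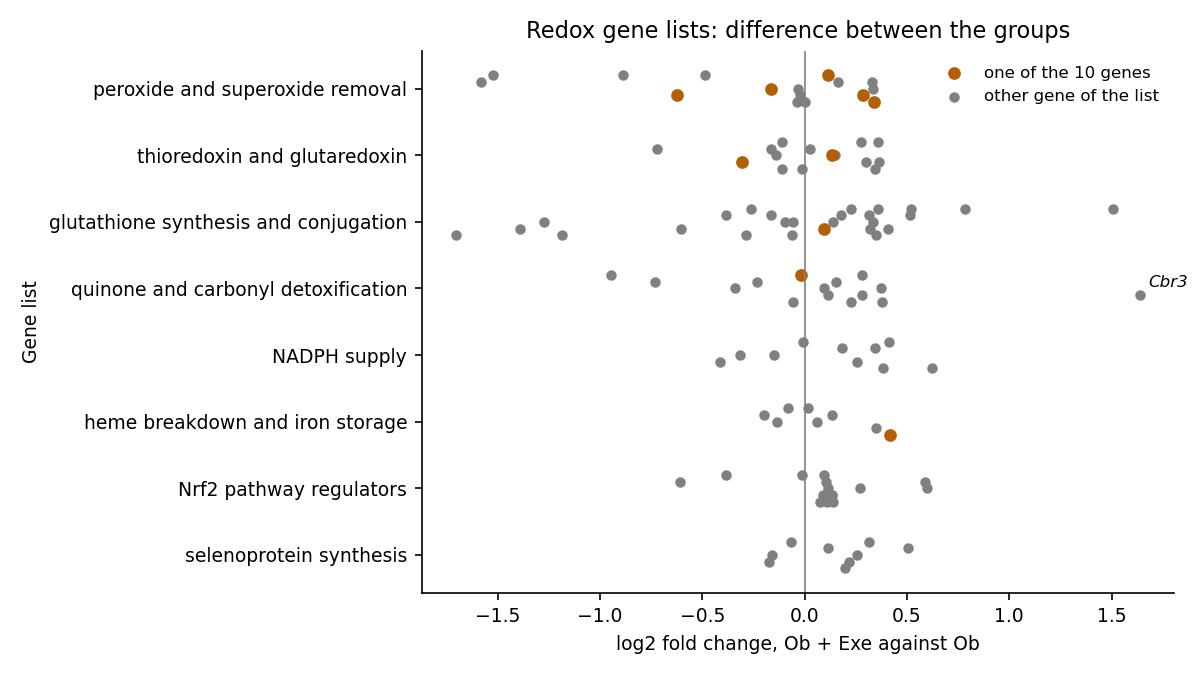
The log2 fold change (Ob + Exe against Ob, horizontal axis) of each tested gene in 8 redox gene lists (vertical axis), with the 10 genes in orange and the other genes in grey. Points lie on both sides of 0 in every list, and Cbr3 at 1.64 is the 1 called gene.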

How the data were processed

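RNA-seq of tibial bone marrow from 2 Ob and 2 Ob + Exe mice was analysed. Per the paper, poly-A RNA was sequenced as pairs of 150 bases. Reads were cleaned by the authors (fastp, then removal of rRNA), mapped with HISAT2 on GRCm38 and filtered in SAMtools, and StringTie gave the levels of the GENCODE vM25 transcripts. Tool versions were not given in the sources used here. The authors deposited, for each library, the FPKM and the read coverage of 142604 transcripts, and coverage is a signal not scaled for depth.

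Transcript FPKM were summed to genes, those with a mean of at least 0.1 were kept, and values were scaled with median-of-ratios factors (0.945 to 1.04). log2(FPKM + 0.1) was tested with limma 3.58.1 in R 4.3.3 with an intensity trend, since DESeq2, which the authors ran, needs counts. The thresholds are those of the study. Tests were two-sided, and adjusted p values are Benjamini-Hochberg values over all 18596 genes. The fit was tested on simulated data. Similar genes were sought with BLAST 2.17.0 (at least 90% identity over 300 bases). Tables were made with pandas 2.3.3 in Python 3.11.15, and figures with matplotlib 3.10.9.

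The members and lists were chosen with earlier results of these data known. Named beyond the 10 genes were Nfe2l2, Keap1, Bach1, Gclc, called genes of the lists and, in each list, the largest non-overlapping changes with a mean of at least 1 FPKM. Ccs, Sod3, Gpx4, Prdx4, Prdx6, Col3a1, Adipoq and, beyond Ly6c2, the macrophage and monocyte markers were named after their values were seen. The 37 mitochondrial transcripts are listed at 0 and were not used. The alternatives are given in the closing section.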

Additional observations from a re-analysis of the deposited data

How the results depend on the processing

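No member was called under any of the 15 alternatives, and 0 to 2 members had an unadjusted p under 0.05 in limma. Sod1, Sod2 and Hmox1 kept their direction under all 15. Over all genes, 186 were called higher and 510 lower. With a pseudocount of 1 these counts were 73 and 149, and with a minimum mean of 1 FPKM 91 and 176. Without a filter 818 genes were called lower, without the intensity trend 784, with limma voom 112 higher and with the most abundant transcript only 321 higher. Quantile normalization gave 246 higher and 416 lower, a larger share of higher calls. With 1 library left out they ranged from 71 to 669 higher and from 528 to 1182 lower, the extremes of the higher count being without Ob replicate 2 and without Ob + Exe replicate 2, and without Ob + Exe replicate 1 they were 421 and 808. Then 1 group has a single library, assumed to vary like the others.

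From the most abundant transcript alone the log2 fold change turned for Prdx2 (-0.12), Pgls (0.10) and Blvrb (0.0597). For Prdx2 this transcript was nearly level in mean FPKM with ENSMUST00000164807.1, which was higher in both Ob + Exe libraries. With 1 library left out the log2 fold change took both signs for Gpx1 (-0.43 to 0.0742), Cat (-0.10 to 0.31), Nqo1 (-0.49 to 0.44), Gclm (-0.34 to 0.51), Txnrd1 (-0.0689 to 0.31), Srxn1 (-0.81 to 0.17), Nfe2l2 (-0.0567 to 0.24), Bach1 (-0.33 to 0.50) and Gclc (-0.31 to 0.0912). Keap1 (-4.99) and Pstk (-2.52) were called from the most abundant transcript alone, and Rbx1 without Ob + Exe replicate 2. Slc7a11 was called without Ob + Exe replicate 1 (2.40, and 0.59 without replicate 2). Gstt2 was called without Ob + Exe replicate 1 (-1.90, and -0.49 without replicate 2), with a minimum mean of 1 FPKM (-1.19) and with quantile normalization (-1.18), and was not from its most abundant transcript alone (-0.77). The cause was not tested.

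By the labels, same-numbered libraries share only a number. Their deviations had a correlation of -0.106 across genes, and of -0.235 across genes with a mean of at least 1 FPKM. What lies behind this correlation was not tested. With the replicate block 225 genes were called higher and 517 lower, 18 with an adjusted p under 0.05 in limma, and 0 members were called. Under both pairings Slc7a11 and Gstt2 were called. The crossed pairing, added after seeing the data, gave 255 and 548, 11 with an adjusted p under 0.05, and 0 members. Under it the limma unadjusted p was 0.0069 for Sod1 (adjusted p = 0.359) and 0.048 for Hmox1 (adjusted p = 0.606).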
